A study of Mus musculus with 47 samples.

Results

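The insulin-like growth factor (IGF) axis was followed through 10 genes: the receptors Igf1r and Igf2r, the adaptors Irs1 and Irs2, and the binding proteins Igfbp2, Igfbp3, Igfbp4, Igfbp5, Igfbp6 and Igfbp7. They were matched by symbol, and the list was chosen with earlier results of these data known. All 10 were found among the 21980 gene symbols used. The study sequenced RNA from cells of the mammary gland sorted by flow cytometry into luminal mature (LM), luminal progenitor (LP) and mammary stem cell (MSC) fractions. All 20 mice were of the FVB strain, ovariectomized and treated for 14 days, and their age and the doses are not given in the labels. Sham-treated mice were the baseline, and a second group had both hormones, E2 (estradiol) and progesterone, together called EP. The other groups had EP plus a blocker of the progesterone receptor: telapristone acetate (EP+TPA) in one, mifepristone (EP+RU486) in the other. So every mouse given a blocker also had both hormones, and neither E2 nor a blocker was given by itself. The 47 libraries formed 12 groups, each of 4 separate mice except LM EP with 3.

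IGF ligands bind the receptor tyrosine kinase IGF1R, which passes the signal to PI3 kinase and AKT through the adaptors IRS1 and IRS2. IGF2R takes up and clears IGF2 without passing on a signal. The secreted binding proteins hold IGFs outside the cell and release them when proteases cut the binding protein. In the mammary gland, IGF signalling is known for supporting ductal growth, and IGFBP5 is known for its rise during involution, the loss of milk-producing epithelium after weaning.

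Values are FPKM (sequenced fragments per length of transcript and per library total) after rescaling between libraries. The deposited values had been shifted and rescaled by gene within 3 sets of libraries: the 15 LM libraries, the 16 LP with 6 MSC libraries, and the other 10 MSC libraries. Levels were therefore compared within a set, and a value listed at 0 may be a level under the shift rather than absence. For Igfbp2 and Igfbp3 in LM and LP, much of the value is a base that many libraries share: Igfbp2 lay within 10% of its lowest value, 39.0, in 11 of 15 LM libraries. Read depth is unknown. All deposited values of a library summed to 281351 to 349128 (LM), 297710 to 358375 (LP) or 217977 to 356258 (MSC). Sorted labels and marker genes did not match in every library. Summed luminal mature markers were 839 to 1508 in sham LM and 300 to 1466 in EP LM, but 79.7 to 196 in LM of antagonist-treated mice. Of 9 such markers, 6 or 7 were listed at 0 in each of those libraries except that of mouse 332 (EP+TPA), where 1 was. In MSC, summed basal markers ran from 7.96 to 10865. In bulk libraries, fewer cells of a type and less RNA per cell cannot be told apart.

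Igfbp5 was lower with EP than in sham in both luminal fractions, and no other gene of the 10 passed the test between EP and sham in LM. In LP, Irs2 and Igf1r were lower with EP as well, but neither call held with values as deposited. When either antagonist was given with the hormones, Igf1r and Igfbp5 were higher in LP than with EP alone. In LM, mifepristone gave higher Igfbp5 and Igfbp7 than EP alone. In MSC, none of the 10 genes passed the test in any treatment comparison, and neither did any other of the 12007 genes tested (0% called). Between fractions of the same mice, 5 of 6 binding proteins were higher in MSC than in LP, where 38.5% of all genes were called and 21.7% were higher. Basal and vascular markers were higher in MSC as well. A gene is called changed at an adjusted p under 0.05 from limma, a linear model fitted to all genes on log2(value + 1), so a log2 difference understates the change of a gene with low values.

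**Figure D1:**
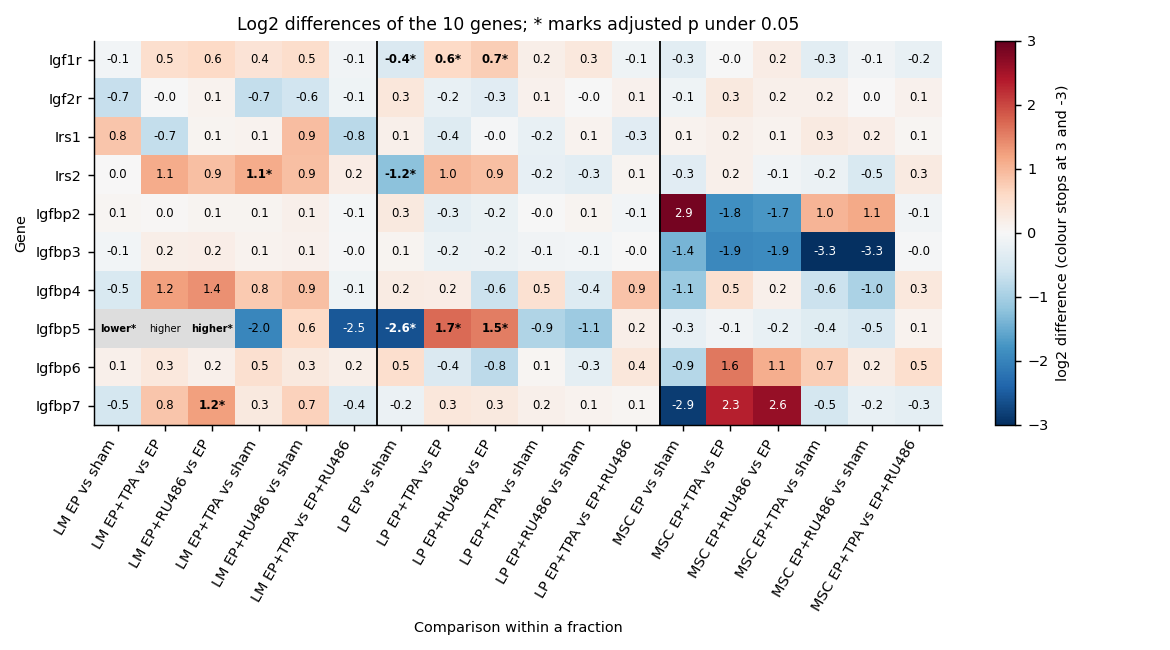
Log2 differences for the 10 genes (rows) in 6 treatment comparisons in each of LM, LP and MSC (columns). Stars mark adjusted p under 0.05, and grey cells give the direction only, since Igfbp5 was listed at 0 in all 3 LM libraries of EP. The stars are on Igfbp5, Igfbp7 and Irs2 in LM and on Igfbp5, Irs2 and Igf1r in LP, and none is in MSC.

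Igf1r encodes the signalling receptor. In LP its level was 1.80, 1.70, 2.09 and 2.20 in the sham libraries of mice 301, 305, 310 and 326. With EP it was 1.25, 1.89, 0.990 and 0.711 in mice 306, 311, 322 and 327. The EP values lay under every sham value except in mouse 311, which was above mouse 305 and mouse 301. The log2 difference was -0.44 (SE 0.14, limma adjusted p = 0.0256), one of 3 genes of the 10 called, all lower, in a comparison in which 32.4% of all genes tested were called and 15.9% were lower. This call was lost in 6 of 16 alternatives, among them leaving out mouse 310, 322, 326 or 327 (adjusted p of 0.0655 to 0.0807) and using values as deposited (log2 difference -0.27, adjusted p = 0.185).

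With EP+TPA, Igf1r in LP was 2.29, 2.31, 2.79 and 1.88 in mice 312, 323, 328 and 336, and with EP+RU486 it was 2.65, 2.85, 2.58 and 2.47 in mice 304, 308, 324 and 329. All 4 mifepristone libraries were above all 4 EP libraries, and the telapristone library of mouse 336 was just under the EP library of mouse 311. The log2 difference from EP was 0.61 (SE 0.14, adjusted p = 0.00692) for telapristone and 0.74 (SE 0.14, adjusted p = 0.00178) for mifepristone. In each comparison 2 of the 10 genes were called, both higher, against 18.6% of all genes called (7.72% higher) for telapristone and 21.2% (8.99% higher) for mifepristone. The telapristone call was lost when the fit held only the groups compared (adjusted p = 0.0665). Markers moved in the same LP comparisons: 7 (telapristone) and 8 (mifepristone) of 9 luminal mature genes were lower than with EP, and 5 and 6 of 10 luminal progenitor genes were higher. Their part in the Igf1r difference was not tested. Against sham, neither antagonist group passed the test for Igf1r (log2 differences 0.17 and 0.30, adjusted p = 0.591 and 0.189).

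In LM, Igf1r was 1.15 to 2.22 in sham, 1.21 to 1.98 with EP, 1.26 to 3.10 with EP+TPA and 1.81 to 3.52 with EP+RU486, and no comparison passed the test. The value of 1.26 belonged to mouse 332, and the other EP+TPA libraries were at 2.92 to 3.10. Igf2r, the clearance receptor, was not called in any fraction or treatment comparison. Its LM sham libraries were spread from 2.14 to 7.99, and the 3 EP libraries were at 2.28 to 2.93 (log2 difference -0.70, SE 0.32, adjusted p = 0.13). Where Igf2r and its antisense partner Airn overlap, their reads cannot be told apart, since the library kit does not mark strand.

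Irs2, an adaptor of the IGF1 and insulin receptors, fell with EP in LP. Its sham values were 38.1, 57.7, 75.2 and 42.3 in mice 301, 305, 310 and 326, and its EP values were 23.3, 42.9, 29.2 and 6.89 in mice 306, 311, 322 and 327. Mouse 311 overlapped the sham range, and the other 3 EP libraries were under it. The log2 difference was -1.22 (SE 0.40, adjusted p = 0.0307). The call was lost in 7 of 16 alternatives. Among them were the use of values as deposited and the fits without mouse 305, 306, 310 or 327. The fits without 1 of these mice gave limma adjusted p of 0.0556 to 0.0935, and without mouse 327 the difference was -0.72. With the antagonists, LP Irs2 was 32.6 to 65.6 (telapristone) and 35.5 to 46.2 (mifepristone), and neither passed the test against EP (adjusted p = 0.11 and 0.13).

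In LM, Irs2 was 17.3, 19.0, 23.5 and 26.8 in the sham libraries of mice 326, 310, 305 and 301, and 67.0, 38.5, 45.3 and 44.1 in the EP+TPA libraries of mice 312, 328, 332 and 336. The 2 groups did not overlap, and the log2 difference was 1.12 (SE 0.32, adjusted p = 0.0251). It was the only one of the 10 genes called between LM EP+TPA and sham, where 16% of all genes were called and 6.85% were higher. The call was lost without mouse 310, 326 or 312 (adjusted p of 0.0705 to 0.0826). In this comparison 7 of 9 luminal mature markers were lower and 2 of 10 luminal progenitor markers higher, and their part in the result was not tested. LM Irs2 was 17.1 to 28.3 with EP and 21.7 to 85.7 with EP+RU486, and the mifepristone group did not pass the test against sham (log2 difference 0.90, adjusted p = 0.053) or EP (0.89, adjusted p = 0.0793). None of the 10 genes was called between LM EP+RU486 and sham by limma, 4 had an unadjusted p under 0.05, and 21.5% of all genes were called.

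Irs1, the other adaptor, was not called in any treatment comparison. In LM it was 0.889 to 2.06 in sham, 2.14 to 4.22 with EP and 2.54 to 5.73 with EP+RU486, so the sham libraries lay under both other groups, but the tests did not pass (adjusted p = 0.163 and 0.0933). In values as deposited, the lowest EP library (2.04) overlapped the highest sham library (2.08). In mouse 336 (EP+TPA), Irs1 was the lowest of its group in both luminal fractions, listed at 0 in LM and at 0.841 in LP, where the other 3 EP+TPA libraries were at 3.03 to 3.62.

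Igfbp5 encodes a binding protein also known to act on cells and matrix apart from IGFs. It lies beside Igfbp2 in the genome, and the start regions of both genes are shown because only Igfbp5 changed with treatment in the luminal fractions. The sequences are RefSeq's for GRCm38.p6, from 250 bases before the annotated start to 50 after it, 5′ to 3′ on the gene's strand. Igfbp5 is at chr1:72874816-72875115, minus strand, and Igfbp2 at chr1:72824230-72824529, plus strand. The table holds a second Igfbp2 start, with its window at chr1:72825137-72825436, which is not printed and holds none of the motifs searched.
Igfbp5: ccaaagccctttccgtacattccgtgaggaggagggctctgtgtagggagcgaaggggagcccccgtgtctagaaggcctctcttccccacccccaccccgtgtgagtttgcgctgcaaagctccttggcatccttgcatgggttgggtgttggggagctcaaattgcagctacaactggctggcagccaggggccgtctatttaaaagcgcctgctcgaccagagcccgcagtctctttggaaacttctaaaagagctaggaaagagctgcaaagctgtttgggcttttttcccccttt
Igfbp2: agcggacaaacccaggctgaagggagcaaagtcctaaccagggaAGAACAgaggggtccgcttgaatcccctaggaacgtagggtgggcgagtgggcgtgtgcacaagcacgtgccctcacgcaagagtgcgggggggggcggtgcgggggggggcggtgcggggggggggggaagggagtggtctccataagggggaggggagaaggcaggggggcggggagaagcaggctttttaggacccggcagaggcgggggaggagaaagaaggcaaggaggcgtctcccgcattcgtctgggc
A set of 4 short motifs were searched on both strands: TGTTCT (a half-site of the progesterone and glucocorticoid receptors), TTCNNNGAA (STAT), the estrogen receptor palindrome (GGTCA and TGACC with any 3 bases between them) and TATAAA. Capitals mark the only match in these 2 windows, AGAACA (the reverse of TGTTCT), 206 bases before the Igfbp2 start. TGTTCT occurs in 19% of 32851 promoter windows of 300 bases, TTCNNNGAA in 8.3%, the estrogen receptor palindrome in 0.07% and TATAAA in 13.6%. A match is a run of letters and not a shown site, and no match in the Igfbp5 window says only that these letters are not in it.

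In LM, Igfbp5 was 420, 120, 223 and 186 in the sham libraries of mice 301, 305, 310 and 326, and it was listed at 0 in all 3 EP libraries. The groups did not overlap, and the limma test gave an adjusted p of 0.00515. No fold is given against a group listed at 0. Igfbp5 was the 1 gene of 10 called, against 19.7% of all genes tested (8.98% lower). The call held in all 14 alternatives run, which included leaving out each library of the 2 groups in turn (largest adjusted p = 0.0284). Of the luminal markers, 3 of 9 luminal mature genes also fell in this comparison and 1 rose, and 4 of 10 luminal progenitor genes fell and 1 rose. Their part in the result was not tested.

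With EP+RU486, LM Igfbp5 was 321, 315, 313 and 346 in mice 308, 313, 329 and 333. All 4 values were above the 3 EP libraries and inside the sham range (adjusted p = 0.00443 against EP and 0.797 against sham). With EP+TPA it was 326, 237 and 121 in mice 312, 328 and 336, but 0 in mouse 332. The telapristone group missed the threshold against EP (adjusted p = 0.0506). None of the 10 genes was called by limma in that comparison, 4 had an unadjusted p under 0.05, and 4.63% of all genes were called. Without mouse 332, 5 of the 10 were called higher than with EP: Igf1r, Irs2, Igfbp4, Igfbp5 (adjusted p = 3.92e-09) and Igfbp7. The share of all genes called rose as well, from 4.63% to 18.7%. Mouse 332 was the lowest EP+TPA library for Igf1r, Igfbp4, Igfbp5 and Igfbp7. For these genes, leaving it out raises the group by construction and adds no support.

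The LM library of mouse 332 stood apart from its group in markers too. Its summed luminal mature markers were 196, between the other 3 EP+TPA libraries (91.1 to 126) and the EP libraries (300 to 1466). Its luminal progenitor sum was 3443, against 2714 to 3328 with EP and 6774 to 26286 in those 3. Between EP+RU486 and EP, 6 of 9 luminal mature markers were lower and 5 of 10 luminal progenitor markers were higher (1 lower). The part of these markers in the Igfbp5 difference was not tested.

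In LP, the Igfbp5 level in sham was 336, 446, 562 and 371 in mice 301, 305, 310 and 326. With EP it was 56.7, 258, 43.8 and 33.4 in mice 306, 311, 322 and 327. All 4 EP libraries lay under all 4 sham libraries, with mouse 311 nearest to them. The log2 difference was -2.60 (SE 0.50, adjusted p = 0.0012), and the call held in all 16 alternatives run, at differences of -4.62 to -2.27. LP EP libraries also differed from sham in markers: 8 of 10 luminal progenitor genes fell, 3 of 9 luminal mature genes rose and 1 fell. The summed luminal progenitor level was 15250 to 21556 in sham, 10706 in mouse 311 and 1081 to 2974 in the other 3 EP libraries. The part of these markers in the result was not tested.

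With EP+TPA, LP Igfbp5 was 362, 179, 306 and 130 in mice 312, 323, 328 and 336, and with EP+RU486 it was 200, 279, 143 and 194 in mice 304, 308, 324 and 329. Both groups overlapped EP through mouse 311, and the other 3 of 4 EP libraries were under all 8 antagonist libraries. The log2 difference from EP was 1.71 (SE 0.50, adjusted p = 0.0267) for telapristone and 1.53 (SE 0.50, adjusted p = 0.041) for mifepristone. These 2 calls were lost in 6 and 10 of 16 alternatives, with adjusted p of up to 0.122 and 0.126. Mice 306, 322, 312, 327 and 328 (telapristone) and every mouse of the 2 groups except 311 (mifepristone) were each needed for the call. Beside these differences, 7 and 8 of 9 luminal mature markers were lower and 5 and 6 of 10 luminal progenitor markers higher than with EP, and their part in the result was not tested. Mice 311 and 327 stand apart from the other LP EP libraries in markers, and without both the differences were 2.15 (adjusted p = 0.000563) and 1.97 (adjusted p = 0.00119). That choice was made after seeing the data, and mouse 311 is the EP library with the highest Igfbp5, so leaving it out widens the difference by construction and adds no support.

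**Figure D2:**
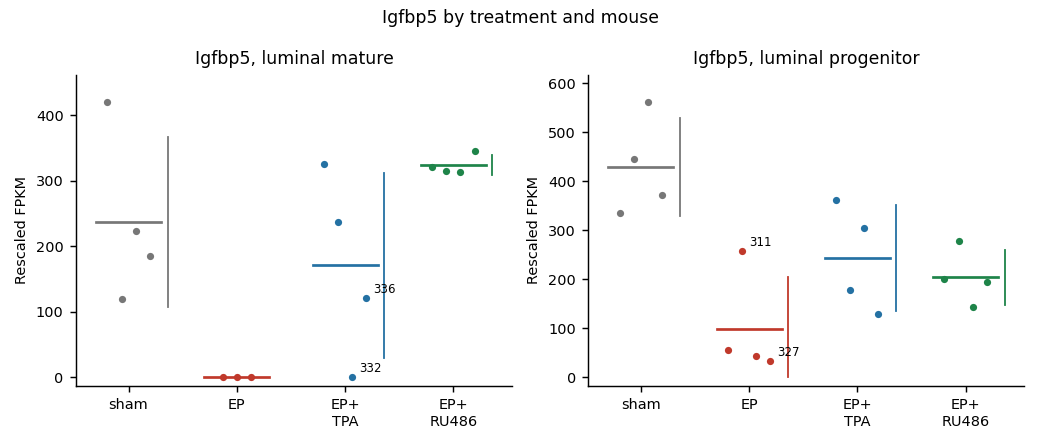
Igfbp5 in rescaled FPKM (vertical axis) by treatment in LM (left) and LP (right). Points are mice, horizontal lines are means and vertical lines are 1 SD either side (not drawn under 0). In LM the 3 EP libraries and that of mouse 332 are at 0, and in LP the 4 EP libraries are at 33.4 to 258, under all 4 sham libraries.

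Against sham, LP Igfbp5 with the antagonists showed log2 differences of -0.90 (95% interval -1.96 to 0.17, adjusted p = 0.367) and -1.08 (-2.14 to -0.01, adjusted p = 0.191). All 4 mifepristone libraries were under all 4 sham libraries, and the telapristone library of mouse 312 was not. None of the 10 genes was called by limma between LP EP+TPA and sham (0 with an unadjusted p under 0.05, 4.94% of all genes called) or between LP EP+RU486 and sham (2 with an unadjusted p under 0.05, 10.4% called).

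Igfbp7, a protein of vessel walls and matrix with low affinity for IGFs, was 488, 322, 349 and 320 in LM sham libraries of mice 301, 305, 310 and 326. With EP it was 259, 302 and 202 in mice 306, 311 and 327, and with EP+RU486 it was 472, 754, 540 and 634 in mice 308, 313, 329 and 333. The 3 EP libraries were under all 4 sham libraries, but the test did not pass (log2 difference -0.54, adjusted p = 0.248). All 4 mifepristone libraries were above the 3 EP libraries, with a log2 difference of 1.23 (SE 0.31, adjusted p = 0.0148). With Igfbp5 this made 2 of 10 genes called between LM EP+RU486 and EP, both higher, where 18.3% of all genes were called and 8.26% were higher. The call was lost without mouse 327 (adjusted p = 0.0661). Summed endothelial markers were 362 to 605 in the mifepristone libraries and 238 to 324 with EP, 0 of 10 endothelial genes were called, and their part in the Igfbp7 difference was not tested.

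In LP, Igfbp7 was 172 to 212 in sham and 127 to 267 with EP, and was not called. The highest EP value was that of mouse 327. In the same library Igfbp4 was 169, against 15.7 to 45.9 in the other 3 EP libraries, and the endothelial marker sum was 456, against 124 to 224. Without the EP libraries of mice 311 and 327, Igfbp7 was lower with EP than in sham (log2 difference -0.54, limma adjusted p = 0.0109). It was then higher with each antagonist than with EP (0.69 and 0.64, limma adjusted p = 0.00298 and 0.00546). That choice was made after seeing the data. Mice 311 and 327 had the highest Igfbp7 of the EP libraries (173 and 267). Leaving them out therefore lowers EP by construction and adds no support.

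Igfbp4, a binding protein that the protease PAPP-A cuts, was 21.1 to 33.7 with EP in LM, 46.1 to 90.6 with EP+RU486 and 19.5 to 108 with EP+TPA. The mifepristone libraries did not overlap those of EP, but the test missed the threshold (log2 difference 1.36, SE 0.47, adjusted p = 0.0568). The telapristone value of 19.5 was again that of mouse 332, and the other 3 were at 77.1 to 108. In LP, Igfbp4 was 15.7 to 169 with EP and 18.5 to 68.1 in sham, and no comparison passed the test.

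Igfbp2, Igfbp3 and Igfbp6 were not called in any treatment comparison in LM or LP. LP Igfbp2 was 8.80 to 9.13 in sham, near its base, and 18.4 in the EP library of mouse 327. LM Igfbp2 was 40.0 to 40.7 in 3 EP+RU486 libraries and 56.8 in mouse 333, whose basal marker sum was 1842 against 999 to 1025 in the others. LP Igfbp3 was 8.75 to 9.45 with EP, above all 8 antagonist libraries (7.54 to 8.70), with log2 differences of -0.20 and -0.18 (adjusted p = 0.194 and 0.221). Igfbp6, which prefers IGF2, was 1.36 to 16.5 in LM and 0.808 to 9.65 in LP.

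**Figure D3:**
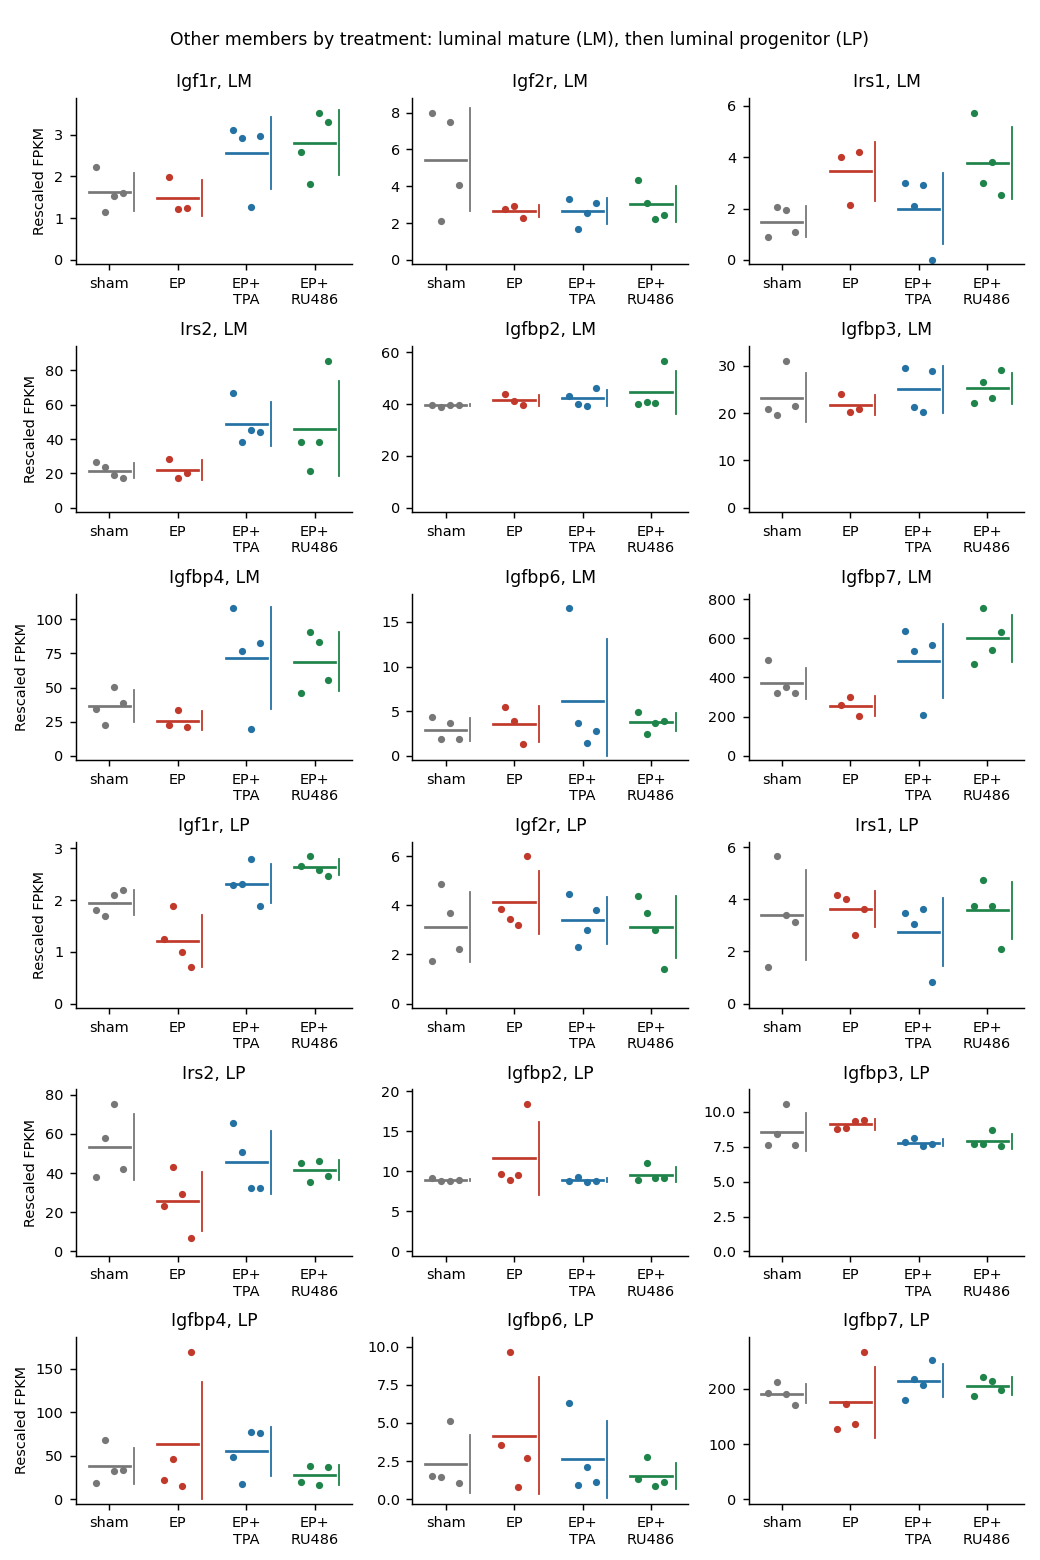
Rescaled FPKM (vertical axes, each panel its own) of the other 9 genes by treatment, in LM (top 3 rows) and LP (bottom 3 rows). Points are mice, horizontal lines are means and vertical lines 1 SD either side (not drawn under 0). LM Igfbp7 with EP+RU486 (472 to 754) lies above EP (202 to 302), and LP Igf1r with EP+RU486 (2.47 to 2.85) lies above EP (0.711 to 1.89).

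The antagonists were compared directly, at the same time and at doses the labels do not give. None of the 10 genes was called by limma in LM, LP or MSC, where 1, 0 and 0 had an unadjusted p under 0.05 and 0% of all genes were called in each. In LP the telapristone minus mifepristone difference was 0.18 for Igfbp5 (95% interval -0.88 to 1.25) and -0.14 for Igf1r (-0.44 to 0.16). In LM it was -0.40 for Igfbp7 (-1.02 to 0.22) and -2.55 for Igfbp5 (-5.60 to 0.50), where mouse 332 was at 0. These intervals leave room for differences in either direction. A miss of the threshold does not show that the compounds act alike.

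Of 53 other genes of the pathway, from ligands to AKT targets, 40 had values high enough to test in LM and 37 in LP. In LM, 4 of the 40 were higher and 3 lower with EP than in sham, a share near the 19.7% of all genes called. Socs2, a feedback inhibitor of hormone and growth factor receptors, rose from 3.12 ± 1.05 (SD, n = 4) in sham to 33.3 ± 9.28 (n = 3), a log2 difference of 3.06 (adjusted p = 5.18e-06). Grb14, an inhibitory adaptor of insulin and IGF receptors, fell from 8.39 ± 2.22 to 1.96 ± 0.752. The ligand Igf1 fell from 2.62 ± 1.71 to 0.395 ± 0.143, and Eif4ebp1, a repressor of translation under mTOR, rose from 20.6 ± 0.646 to 50.01 ± 18.15.

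In LP, 7 of the 37 were higher and 7 lower with EP, where 32.4% of all genes were called. Socs2 rose from 7.29 ± 0.508 to 30.2 ± 21.6 (n = 4 each), Inppl1 (a lipid phosphatase acting on the PI3 kinase product) from 9.65 ± 1.81 to 21.0 ± 8.85, and Mtor from 2.06 ± 0.407 to 4.003 ± 1.509. Pik3r1, the main regulatory subunit of PI3 kinase, fell from 26.2 ± 9.05 to 10.4 ± 4.08. Inppl1 and Pik3r1 thus moved in opposite directions with EP.

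With the antagonists, 1 gene of the 40 was higher and 3 lower than EP for LM telapristone (4.63% of all genes called), and 3 and 5 for LM mifepristone (18.3% called). In LP, 2 of 37 were higher and 5 lower with telapristone (18.6% called), and 4 and 5 with mifepristone (21.2% called). These counts are given as a description of the list and are close to the share over all genes in LM mifepristone and in LP. The stanniocalcins, secreted inhibitors of the protease that cuts IGFBP4, moved in opposite directions. In LP, Stc1 was 9.80 ± 3.82 with EP, 40.0 ± 4.36 with EP+TPA and 44.6 ± 7.60 with EP+RU486 (adjusted p = 8.00e-06 and 7.94e-06). LP Stc2 was 142 ± 87.4 with EP, 11.4 ± 1.36 with EP+TPA and 12.49 ± 4.987 with EP+RU486 (adjusted p = 0.000439 and 0.000507). LM Stc2 was 143 ± 139 with EP, was listed at 0 in 3 of 4 telapristone libraries (22.3 in the other, adjusted p = 0.00842) and was listed at 0 in all 4 mifepristone libraries. LM Stc1 was 8.98 ± 1.46 with EP and 63.7 ± 12.6 with mifepristone. With telapristone it was 46.5 ± 26.0 and overlapped EP, at 7.92 to 63.1 (adjusted p = 0.0492). Inppl1 was lower and Pik3r1 higher with each antagonist in LP (Inppl1 log2 differences -1.26 and -1.07, Pik3r1 1.41 and 1.73). LM Inppl1 was lower with each antagonist as well (-1.68 and -1.83). LM Socs2 was lower with telapristone than with EP (-1.10, adjusted p = 0.0277), and LM Pik3r3 lower with mifepristone (-1.06, adjusted p = 0.00569).

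In MSC, limma with a term for the set called none of the 10 genes, and none of the 12007 genes tested (0% called), in EP against sham or either antagonist against EP or sham. Of the 10, 1 (EP against sham), 1 (telapristone against EP) and 0 (mifepristone against EP) had an unadjusted p under 0.05, as did 642, 817 and 592 of all genes. Against sham, 2 of the 10 (telapristone) and 1 (mifepristone) did. Spread within groups was wide. Igfbp7 was 0 in the EP library of mouse 327 and 718 in that of mouse 311, the other EP library of the same set. Its log2 difference between EP and sham was -2.85, with a 95% interval of -6.36 to 0.65.

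The MSC differences farthest from 0 were those of Igfbp3, the main carrier of IGFs in blood, between the antagonist groups and sham. In the set of 10 libraries Igfbp3 was 48.3, 71.5 and 104.9 in the sham mice 310, 326 and 334. It was 3.65, 0 and 43.2 with EP+TPA in mice 312, 328 and 336, and 7.55 and 0 with EP+RU486 in mice 313 and 329. In the set of 6 it was 115 in the sham library of mouse 305, 20.3 in mouse 323 (EP+TPA), and 53.2 and 51.0 in mice 308 and 324 (EP+RU486). In each set every antagonist library lay under every sham library. With EP, Igfbp3 was 9.91 and 47.0 in mice 311 and 327 of the set of 10, also under every sham library there. In the set of 6 it was 52.7 in EP mouse 306 and 164 in EP mouse 322, under and above the sham library. The log2 difference from sham was -3.32 for telapristone (95% interval -5.63 to -1.02, unadjusted p = 0.00821) and -3.29 for mifepristone (-5.64 to -0.94, unadjusted p = 0.0097). By limma neither passed the adjustment over all genes (adjusted p = 0.999 for telapristone and above that for mifepristone), nor did they in any alternative run (smallest adjusted p = 0.302, with array weights). Without 4 libraries low in basal markers (mice 306, 312, 313 and 328) the differences were -1.96 and -3.45. That choice was made after seeing the data. It took out mice 312 and 328, the EP+TPA libraries lowest in Igfbp3 in the set of 10, which by itself brings the telapristone difference nearer to sham.

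Marker sums also differed widely between the MSC libraries. In the set of 10, mice 326 (sham) and 327 (EP) had basal marker sums of 4354 and 3480, against 7.96 to 2089 in the other 8, and endothelial sums of 32.9 and 0, against 479 to 1047. In these 2 libraries Igfbp2 was 214 and 191 (0 to 56.8 in the other 8), Igfbp5 was 296 and 251 (98.4 to 176), and Igfbp7 was 238 and 0 (252 to 1372). In mouse 313 (EP+RU486), 8 of 10 basal markers were listed at 0 and their sum was 7.96, and all 10 endothelial markers were listed at 0 in mouse 327. In the set of 6, the endothelial sum was 1253 to 1819 and Igfbp7 1616 to 1811 in mice 305, 306 and 308, and 218 to 401 and 422 to 716 in mice 322, 323 and 324. The part of cell makeup in the MSC treatment comparisons was not tested.

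**Figure D4:**
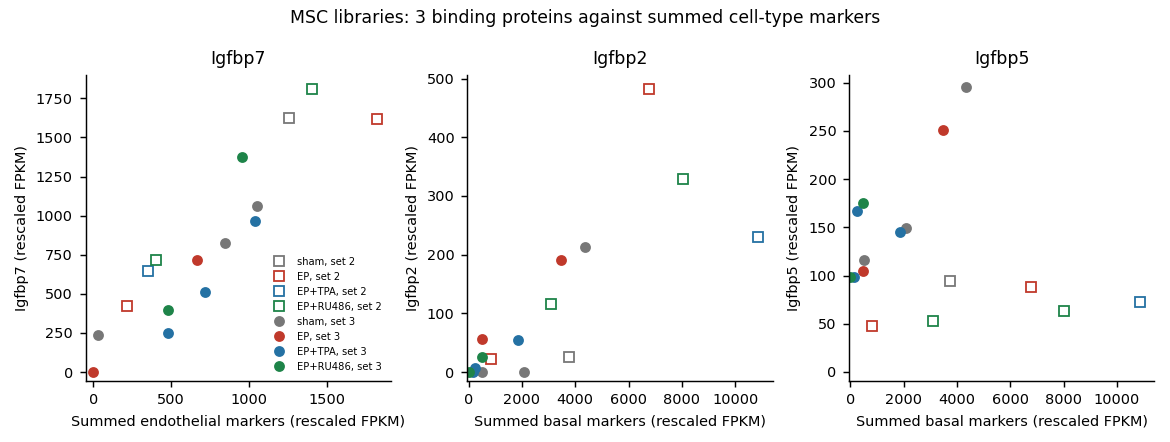
The 16 MSC libraries: Igfbp7 against summed endothelial markers (left), and Igfbp2 (middle) and Igfbp5 (right) against summed basal markers, in rescaled FPKM. Colours are treatments, open squares are the 6 libraries adjusted with LP and filled circles the other 10, and levels are comparable within a shape. The filled circles highest in Igfbp2 and Igfbp5 are mice 326 (214 and 296) and 327 (191 and 251).

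MSC and LP libraries of the same 6 mice (305, 306, 308, 322, 323 and 324) were adjusted together and could be compared in level. Igfbp2, Igfbp3, Igfbp4, Igfbp6 and Igfbp7 were higher in MSC in 6 of 6 mice, as was Igf1r, and Irs1 was lower in 6 of 6. These made 7 of the 10 genes called (6 higher, 1 lower), where 38.5% of all genes were called, 21.7% higher and 16.9% lower. Igfbp2 in MSC was 24.997, 22.7, 116, 483, 230 and 328 in mice 305, 306, 308, 322, 323 and 324, against 8.83 to 10.97 in LP, a log2 difference of 3.48 (SE 0.69, adjusted p = 0.00372). The 3 mice from 322 to 324 had the highest MSC values. Igfbp3 was 20.3 to 164 in MSC and 7.69 to 9.37 in LP (log2 difference 2.73, SE 0.34, adjusted p = 0.000274), with no overlap. In LP both genes lie near the base that many libraries share, so the size of these 2 differences is uncertain. Over the alternatives it was 1.95 to 5.81 for Igfbp2 and 2.38 to 4.81 for Igfbp3, and both calls held in all 15.

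Igfbp7 was 422 to 1811 in MSC and 127 to 222 in LP (2.42, SE 0.36, adjusted p = 0.000774). Igfbp4 was 42.4 to 114 in MSC and 15.7 to 68.1 in LP (1.55, SE 0.32, adjusted p = 0.00508), and Igfbp6 was 3.09 to 21.2 in MSC and 0.808 to 3.54 in LP (2.07, SE 0.38, adjusted p = 0.00246). In this comparison 10 of 10 basal, 9 of 10 endothelial, 5 of 9 tested fibroblast and 5 of 7 tested pericyte markers were also higher in MSC. With only mice 322, 323 and 324, whose MSC endothelial sums were 218 to 401, the Igfbp7 difference was 1.64 (adjusted p = 0.00423) and the Igfbp2 difference 5.01. With only mice 305, 306 and 308 they were 3.20 and 1.95. This split of the mice was made after seeing the data. The part of cell makeup in the differences between MSC and LP was not tested.

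The adaptor Irs1 was 0.898 to 1.90 in MSC and 2.63 to 5.65 in LP (-1.13, SE 0.18, adjusted p = 0.00104). Igf1r was 2.23 to 3.49 in MSC and 0.990 to 2.85 in LP (0.46, SE 0.13, adjusted p = 0.0201). The Igf1r call was lost in 8 of 15 alternatives, and with values as deposited the difference was 0.04 and only 3 of 6 mice were higher in MSC. Igfbp5 was the binding protein that was not higher in MSC: 5 of 6 mice had the higher value in LP (47.8 to 94.0 in MSC, 43.8 to 446 in LP), but the test missed the threshold (-1.05, SE 0.39, adjusted p = 0.0564), and with values as deposited it passed (-1.67, adjusted p = 0.00366). Igf2r and Irs2 were not called (adjusted p = 0.462 and 0.223).

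**Figure D5:**
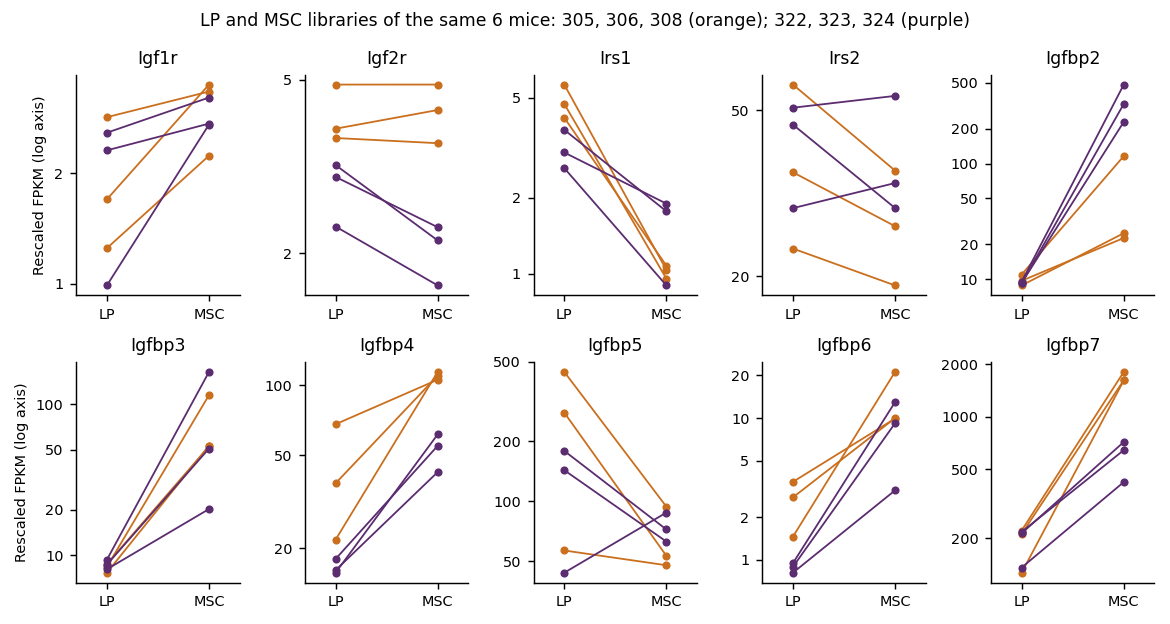
Rescaled FPKM (log axes, each panel its own) of the 10 genes in LP and MSC libraries of the same 6 mice, joined by a line per mouse. Igfbp2, Igfbp3, Igfbp4, Igfbp6, Igfbp7 and Igf1r rise from LP to MSC in 6 of 6 mice, and Irs1 falls in 6 of 6. Purple mice (322, 323, 324) end lower for Igfbp7 (422 to 716) than orange mice (1616 to 1811).

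Pearson r was taken over the 15 LM or 16 LP libraries, which differ in treatment and marker levels. As a description, it gave the genes whose log2 values followed each of the 10 most closely. For Igfbp5 these were Anxa8 (r = 0.995) and Arhgef6 (0.991) in LM, and Btn1a1 (0.958), a milk fat globule protein, and St6galnac6 (0.956) in LP. LM Igfbp5 was listed at 0 in 4 of the 15 libraries, and these weigh heavily in its r. Irs2 in LP was nearest to Irx2 (0.938) and to Elf5 (0.930), the luminal progenitor transcription factor, and in LM to Rasgef1b (0.902) and Dyrk2 (0.875). Igfbp7 was nearest to Alpl (0.977) and Lcn2 (0.963) in LM, and to Cpne8 (0.927) and Ehd2 (0.913) in LP. Igf1r in LP was nearest to Anpep (0.968) and Pde9a (0.966), and in LM to Add3 (0.940) and Dyrk2 (0.925). For Igf2r the genes were Pogk (0.939) and Vps13a (0.919) in LM, and Trip12 (0.968) and Tmem131 (0.925) in LP. For Irs1 they were Bivm (0.880) and Lrrcc1 (0.871) in LM, and Cbfa2t2 (0.913) and Mum1 (0.866) in LP. For Igfbp3 they were Islr (0.896) and Dpep1 (0.887) in LM, and Serpinf1 (0.834) and Hist2h2ac (0.831) in LP. LP Igfbp4 was nearest to Gpr182 (0.990) and Flt4 (0.989), both known from endothelium, and LM Igfbp4 to Bgn (0.982) and Fstl1 (0.979). LP Igfbp2 was nearest to Tpm2 (0.976) and Moxd1 (0.972), and LM Igfbp2 to Irx4 (0.936) and Myl9 (0.936). Igfbp6 was nearest to Cd248, a stromal surface protein, in both LM (0.905) and LP (0.904). The next gene for Igfbp6 was Fam212a (0.880) in LM and Gpc3 (0.887) in LP. The EP library of mouse 327 was the highest of LP for Igfbp4 (169) and Igfbp2 (18.4), and weighs heavily in the LP r of both.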

How the data were processed

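RNA was amplified with a kit that does not mark strand, per the labels' protocols. STAR, Cufflinks, DESeq2 and mm9 are named, without versions or order, in the submitters' processing notes. The values deposited by the authors have the scale of FPKM, are not whole numbers, and were shifted and rescaled by gene within 3 sets of libraries. This step was found from the values: 2 libraries of 1 set have 1382 to 6488 positive values exactly in common, and libraries of different sets have 0. Because each set was adjusted apart from the others, levels in LM were not set against the other fractions.

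Within a set, median-ratio factors of 0.504 to 1.324 scaled only what exceeded a gene's lowest value, where 2 libraries share that value or 25% lie within 10% of it, and other genes whole (a rule chosen after seeing the data). limma 3.58.1 in R 4.3.3 (trend, robust) was fitted to log2(value + 1), with the 4 treatments of a fraction in 1 fit and a set term in MSC. Genes needed a value of 1 in 3 libraries and 3 libraries above their lowest value. The Benjamini-Hochberg adjustment of p-values ran over every gene of a fit. Of 22007 symbols, 27 resembling dates were left out. The fit was tested on simulated data. MSC and LP were compared with treatment as a term, and with the mouse named in the labels as a block in an alternative.

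The members and lists were chosen with earlier results of these data known. The text names all 10 genes, for each comparison with EP up to 4 pathway genes of smallest adjusted p under 0.05, and the 2 genes of highest r. Alternatives were another pseudocount, no filter, no rescaling, fits of only the groups compared, array weights, each library left out and, after seeing the data, other treatments of the base and libraries set aside by their markers.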

Additional observations from a re-analysis of the deposited data

Results flagged for a closer look

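Of 70 groups of 4 libraries, 8 had a library far from the others by Dixon's test. Its cut-off passes about 1 in 20 independent groups by chance when values are normally spread. These groups are 10 genes in the same libraries, so they are not independent. Many Igfbp2 and Igfbp3 values also lie near a shared base. The number flagged is therefore no measure of an excess over chance. In LM EP+TPA, mouse 332 was lowest for Igf1r (1.26, others 2.92 to 3.10), Igfbp5 (0, others 121 to 326) and Igfbp7 (210, others 533 to 636). In LP EP+TPA, mouse 336 was lowest for Irs1 (0.841, others 3.03 to 3.62). Igfbp2 was highest in mouse 333 of LM EP+RU486 (56.8, others 40.0 to 40.7), in mouse 327 of LP EP (18.4, others 8.89 to 9.69) and in mouse 308 of LP EP+RU486 (10.97, others 8.91 to 9.22). Igfbp3 was highest in mouse 324 of LP EP+RU486 (8.70, others 7.54 to 7.69).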

How the results depend on the processing

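Over the alternatives, 2952 of 3060 values of single genes kept their side of the threshold, 42 lost a call, 66 gained one and 0 turned direction while called. The number of the 10 genes called moved as follows, often together with the share of all genes called: array weights moved that share from 19.7% to 34.5% (LM EP against sham), from 4.63% to 19.9% (LM telapristone against EP), from 16% to 30.5% (LM telapristone against sham) and from 21.5% to 43% (LM mifepristone against sham). Array weights gave 2 for LM EP against sham (1 in the report), 5 for LM telapristone against EP (0), 4 for LM mifepristone against EP (2), 5 for LM telapristone against sham (1), 6 for LM mifepristone against sham (0), 4 for LP telapristone against EP (2), 1 for LP mifepristone against sham (0) and 2 for MSC EP against sham (0: Igfbp2 and Igfbp4). Fitting only the groups compared gave 3 for LM mifepristone against sham, 1 for LP EP against sham (3), 0 for LP telapristone against EP, 1 for LP mifepristone against EP (2) and 1 for LP mifepristone against sham. Values as deposited gave 1 for LM telapristone against EP, 1 for LM mifepristone against sham, 1 for LP EP against sham and 1 for LP mifepristone against EP. With no filter, LM telapristone against EP had 1 and LP mifepristone against EP had 1. Subtracting each gene's lowest value gave 2 for LM telapristone against EP, 5 for LM mifepristone against EP and 1 for LM mifepristone against sham. Without both LP EP libraries that stand apart, LP mifepristone against sham had 1. Counts rose to 4 for LP EP against sham (array weights, and without the LP EP libraries of mice 311 and 327) and 3 for LP mifepristone against EP (array weights, without mouse 311, and without mice 311 and 327). The cause of these shifts was not tested. Leaving out 1 library at a time gave 1 to 2 (LM EP against sham), 0 to 5 (LM telapristone against EP), 1 to 3 (LM mifepristone against EP), 0 to 4 (LM telapristone against sham), 0 to 1 (LM mifepristone against sham), 1 to 3 (LP EP against sham, and each antagonist against EP) and 0 for the other treatment comparisons. MSC against LP had 7 with the block by mouse, as without it, 6 to 7 with a mouse left out and 6 to 9 otherwise, and the block changed no call. No paired analysis was possible because mice differ between treatments within a fraction. Igfbp5 with EP kept its call under every alternative run in LM and LP. The unknown read depth sets no stated limit on low values.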
